A study of Homo sapiens with 9 samples.

Results

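The matrix metalloproteinases examined here were 10 genes of the family, MMP1, MMP2, MMP3, MMP9, MMP10, MMP12, MMP13, MMP14, MMP16 and MMP19, out of 19775 genes on the array. They were found as every probe set whose only gene symbol in the platform annotation was one of these names, which gave 20 probe sets of the 41091 with 1 symbol. Their RNA was measured in LiSa-2, a human liposarcoma cell line, on Affymetrix Human Genome U133 Plus 2.0 arrays, with 1 array per sample and 9 arrays in all. The groups were cells given bovine testicular hyaluronidase (HAase) at 400 µg/mL for 24 h, cells given the same dose for 6 h, and cells given phosphate-buffered saline (PBS) and harvested at 24 h, with 3 samples each. All groups were 1 cell line on plates in medium with bovine serum. No sample received inactivated enzyme, so the enzyme and anything else in the preparation cannot be told apart. The 6 h cells differ from the PBS cells in harvest time as well, and the 2 cannot be told apart.

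Matrix metalloproteinases are zinc endopeptidases, most of them secreted as inactive proenzymes, that cut the proteins of the extracellular matrix. Collagenases (MMP1, MMP13) cleave fibrillar collagen, stromelysins (MMP3, MMP10) cleave proteoglycans and glycoproteins and can activate other proenzymes, and gelatinases (MMP2, MMP9) digest denatured collagen and basement membrane collagen. MMP12 is an elastase best known from macrophages, MMP14 and MMP16 are anchored in the cell membrane and can activate the MMP2 proenzyme, and MMP19 is a widely expressed member outside these classes. In mesenchymal cells the inducible members are classically switched on by interleukin 1 and growth factors through AP-1 transcription factors. The substrate of hyaluronidase is hyaluronan, a polysaccharide that these proteases do not cut.

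Signals are linear intensities in arbitrary units, scaled per array before deposit, with array medians between 55.8 and 61.3. On each array the highest signal among 27 bacterial control probe sets (Bacillus subtilis) is called the control level, and it lay between 34.2 and 65.0. Correlations across genes were at least 0.989 between arrays of 1 group and at most 0.974 between arrays of different groups. The liposarcoma amplicon genes MDM2 and CDK4 and the adipocyte genes PPARG and FABP4 lay above the control level on all 9 arrays, and HMGA2 on 3 of 3 arrays at 24 h, 3 of 3 at 6 h and 1 of 3 in PBS. HMGA2 gave 1658, 1705 and 1565 at 24 h, 750, 732 and 692 at 6 h, and 43.6, 49.2 and 60.3 in PBS. The part of this rise in the results was not tested. All 6 adipocyte markers fell at 24 h and 4 of them at 6 h, and the part of this in the results was not tested. The epithelial genes EPCAM and CDH1, the leukocyte gene PTPRC and the endothelial gene CDH5 lay above it on none of the 9 arrays. Of the 6 leukocyte and macrophage markers ITGAM, CSF1R and CD163 lay above it on all 9 arrays. Of the 5 epithelial markers KRT8 lay above it on all 9 arrays and KRT18 on 2 at 24 h. Of the 4 endothelial markers PECAM1 lay above it on all 9 arrays and KDR and VWF on some. The summed signal of the epithelial markers ran from 192 to 259.8 at 24 h, from 192 to 289 at 6 h and from 170.2 to 248 in PBS, and neither of the 2 tested passed. That of the endothelial markers ran from 415 to 433 at 24 h, from 370.4 to 418 at 6 h and from 272 to 334 in PBS, and PECAM1, the 1 tested, was higher by 0.53 at 24 h and 0.40 at 6 h. The part of these markers in the results was not tested. The log2 difference between 3' and 5' GAPDH probe sets, a sign of RNA quality, averaged -0.11 at 24 h, -0.022 at 6 h and 0.012 in PBS. That of ACTB averaged 1.52 at 24 h, 1.37 at 6 h and 1.64 in PBS, a higher 3' signal in every group, and the part of either in the results was not tested. Nothing in the labels states that the 3 samples of a group came from different cultures, so the spread behind each p-value may be technical.

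With 24 h of hyaluronidase the interstitial collagenase MMP1, the stromelysin MMP3 and the gelatinase MMP9 rose to several or many times their level in PBS, while the gelatinase MMP2 and the membrane protease MMP16 fell. By limma, with p-values adjusted over all 13842 genes tested, 5 of the 9 tested members were higher (MMP1, MMP3, MMP10, MMP9 and MMP14) and 2 were lower (MMP2 and MMP16) at an adjusted p under 0.05. Of all genes tested, 40.3% were called in this comparison, 17.5% higher and 22.8% lower. By fitted change the members called 2-fold or more higher were MMP1, MMP3, MMP10 and MMP9, while 554 of all 13842 genes were. For MMP10, below the control level on all PBS arrays, the bound was only at least 1.36-fold, so its place among these is uncertain. The 24 h and PBS arrays were fully separate for 7 of the 9 members, against 52.0% of all genes. The members' median log2 fold change was 0.47, against -0.026 for all genes. MMP13 was below the filter on low signals and was not tested, and MMP1, MMP10 and MMP12 had PBS levels under that filter. MMP1 and MMP10 passed it through the treated groups and MMP12 through the 6 h group alone, so the counts and medians in each comparison are descriptions only. In RNA from whole cultures a change in the share of cells that express a gene and a change in RNA per cell cannot be told apart.

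**Figure D1:**
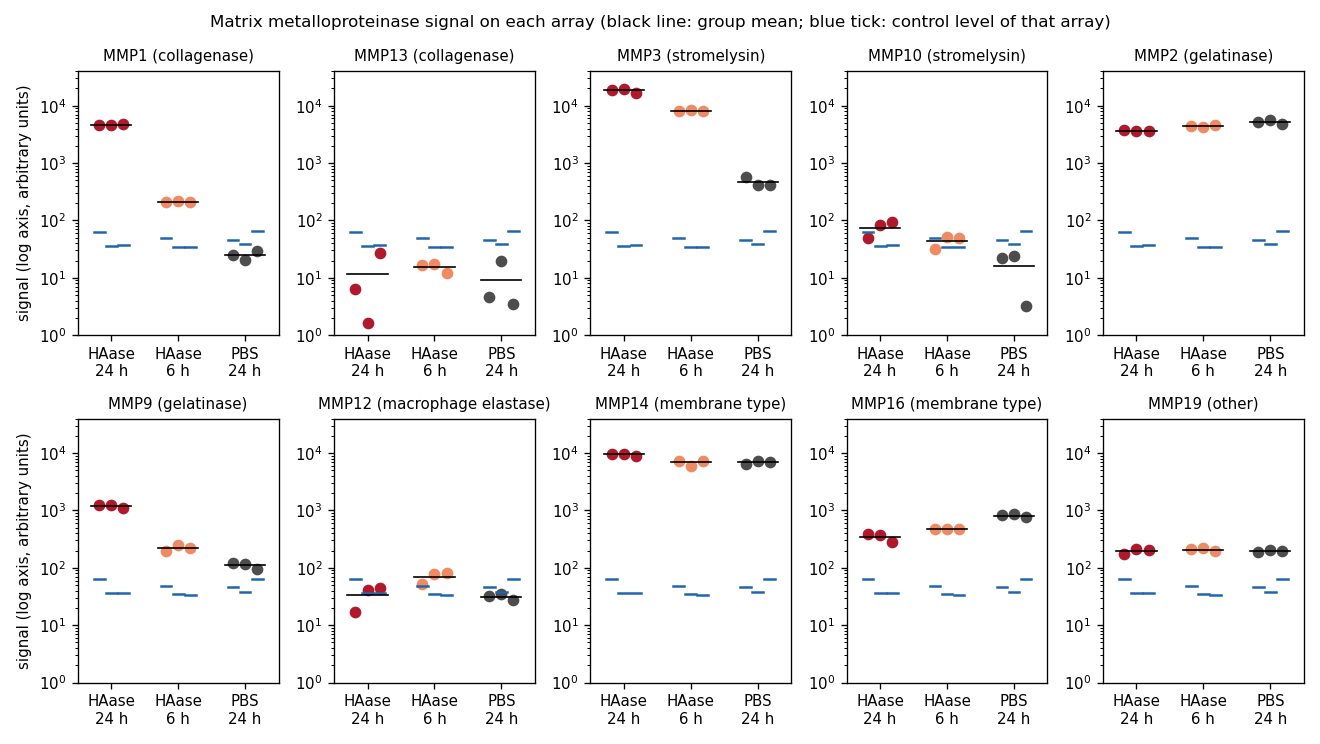
Signal of the brightest probe set of each of the 10 members (log axis, arbitrary units) on the 3 arrays each of HAase 24 h, HAase 6 h and PBS. Points are arrays, black lines group means and blue ticks the control level of each array. MMP1, MMP3 and MMP9 are highest at 24 h, MMP16 and MMP2 are highest in PBS, and MMP13 stays below every control level.

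MMP1, the interstitial collagenase, gave signals of 4683, 4574 and 4733 at 24 h, of 212, 214 and 206 at 6 h, and of 25.3, 20.8 and 29.0 in PBS. The 3 groups did not overlap, and the PBS arrays all lay below their control levels, so that the PBS level is only an upper bound. Group means were 4663 ± 81.2 at 24 h and 211 ± 4.44 at 6 h (SD, n = 3 each). Against the control level of the PBS arrays the gene was at least 72.1-fold higher at 24 h and at least 3.49-fold higher at 6 h, both on the log2(signal + 16) scale, which understates changes of dim genes. The limma adjusted p-values were 3.28e-09 at 24 h and 2.48e-07 at 6 h. The fitted log2 fold changes, 6.84 ± 0.07 and 2.47 ± 0.07 (SE), depend on the added constant because PBS is dim: at 24 h the value was 7.50 with a constant of 1 and 5.73 with a constant of 64. Between the times, where both groups were bright, MMP1 was 20.6-fold higher at 24 h than at 6 h (adjusted p = 1.06e-07), first by fitted change among the 13842 genes.

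MMP13, the other collagenase examined, gave 6.25, 1.61 and 27.5 at 24 h, 16.8, 17.7 and 12.0 at 6 h, and 4.59, 19.3 and 3.56 in PBS. All 9 arrays lay below their control level, so no fold is given. In the fit of every probe set with 1 symbol, without a filter, its adjusted p was 0.909 at 24 h and 0.563 at 6 h. The response of the collagenases was thus measured for MMP1 and not detectable for MMP13 at these signals.

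MMP3, or stromelysin-1, gave 18666, 19696 and 16978 at 24 h, 7949, 8419 and 8231 at 6 h, and 563, 410.1 and 423 in PBS. Every array lay far above its control level and the 3 groups did not overlap. The means were 18447 ± 1372 at 24 h, 8200 ± 237 at 6 h and 465 ± 84.9 in PBS (SD, n = 3 each). MMP3 was 38.7-fold higher than in PBS at 24 h (log2 fold change 5.27 ± 0.12 SE, limma adjusted p = 5.47e-08). At 6 h it was already 17.2-fold higher (4.11 ± 0.12, adjusted p = 2.05e-07). The step from 6 h to 24 h was 2.24-fold (1.17 ± 0.12, adjusted p = 2.51e-04), smaller than that of MMP1. By fitted change MMP3 was in place 19 of all genes at 6 h and in place 7 at 24 h.

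MMP10, or stromelysin-2, is close to MMP3 in sequence but was dim. It gave 48.9, 82.4 and 92.2 at 24 h, 31.7, 50.6 and 49.9 at 6 h, and 22.1, 23.6 and 3.22 in PBS. The treated arrays were all higher than the PBS arrays, but only 2 of 3 at each time lay above their control level, and none in PBS. At 24 h the gene was called higher (limma adjusted p = 0.00588) and at least 1.36-fold above the control level of the PBS arrays, and its fitted log2 fold change of 1.53 moved between 0.78 and 2.45 with the added constant. At 6 h it was called at an adjusted p of 0.0432, and no fold is given because the 6 h mean did not exceed the PBS control level. That call was lost without 6 h replicate 2 or 3, 24 h replicate 2 or 3 or PBS replicate 3 (adjusted p up to 0.114), and with the replicate number as a block (0.0661). It was also lost with no filter (0.0680), with a constant of 1 (0.0741) and in the fit of 2 groups (0.0598). In the fit of all probe sets its adjusted p was 0.0838. The difference between 24 h and 6 h did not pass (0.57, 95% interval -0.16 to 1.31, adjusted p = 0.213).

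The promoters of MMP10 and MMP14 were matched in the RefSeq promoter table (build GRCh38.p14), 2 of the 10 members, and are shown for the AP-1 letters, which 1 of them holds. The 100 bases before each start site, 5′ to 3′ on the gene's strand, lie at chr11:102780629-102780728 on the minus strand for MMP10 and at chr14:22836485-22836584 on the plus strand for MMP14. Capitals mark the letters of the AP-1 motif.
MMP10: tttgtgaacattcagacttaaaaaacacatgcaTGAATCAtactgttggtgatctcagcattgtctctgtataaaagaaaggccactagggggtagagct
MMP14: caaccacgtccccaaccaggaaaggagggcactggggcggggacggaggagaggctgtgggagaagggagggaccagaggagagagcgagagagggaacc
The windows searched, on both strands, ran from 250 bases before to 50 bases after the start site. The AP-1 motif TGANTCA, where N is any base, was found once in MMP10, at positions -67 to -61 from the start site, and the TATA box TATAAA at -31 to -26. Of all 27305 promoters searched in the same way, 7.76% held the AP-1 letters and 12.0% the TATA letters. The MMP14 window held neither of these, and neither window held the ETS letters AGGAAG (33.7% of all promoters) or the cyclic AMP response element TGACGTCA (1.98%). A match of letters is a description and shows no binding, and a window without them shows nothing about the factor.

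MMP9, or gelatinase B, gave 1227, 1223 and 1114 at 24 h, 196, 249 and 226 at 6 h, and 122, 118 and 94.7 in PBS. All arrays lay above their control level and the 3 groups did not overlap. The means were 1188 ± 64.3 at 24 h, 224 ± 26.5 at 6 h and 111 ± 14.6 in PBS (SD, n = 3 each). MMP9 was 9.49-fold higher than PBS at 24 h (log2 fold change 3.25 ± 0.11 SE, limma adjusted p = 3.31e-07) and 1.88-fold higher at 6 h (0.91 ± 0.11, adjusted p = 3.97e-04). It rose 5.04-fold between 6 h and 24 h (adjusted p = 7.28e-06), place 16 among all genes by fitted change.

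MMP9 is also made by macrophages and neutrophils, and some leukocyte markers moved with it. The summed signal of the 6 leukocyte and macrophage markers on the array ran from 780 to 876 at 24 h, from 332 to 400.0 at 6 h and from 262 to 323 in PBS. Of the 3 tested, CD163 and CSF1R rose at both times and ITGAM did not pass, and all 3 lay above the control level on all 9 arrays. PTPRC, which marks nearly all leukocytes, and LYZ lay below the control level on all 9 arrays, and CD14 lay above it on 1 array at 24 h, none at 6 h and 1 in PBS. The part of these markers in the MMP9 result was not tested.

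MMP2, or gelatinase A, went the other way by a small amount. Its brightest probe set gave 3740, 3637 and 3686 at 24 h, 4480, 4299 and 4531 at 6 h, and 5299, 5564 and 4820 in PBS. The values of the 3 groups did not overlap and were lowest at 24 h. MMP2 was 1.41-fold lower than PBS at 24 h (log2 fold change -0.50 ± 0.06 SE, limma adjusted p = 4.22e-04) and 1.18-fold lower at 6 h (-0.23 ± 0.06, adjusted p = 0.0182). It was 1.20-fold lower at 24 h than at 6 h (adjusted p = 0.0135). That difference was not called in the fit of all probe sets (adjusted p = 0.0678).

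Both other MMP2 probe sets were dim, and neither passed at either time. One of them gave 70.3, 35.1 and 28.7 at 24 h, 15.2, 63.2 and 17.6 at 6 h, and 14.9, 8.19 and 5.86 in PBS, above the control level on 1 array at each treated time, and the other lay below it on all 9 arrays. The mean of the 3 MMP2 probe sets reversed the direction at both times (0.12 at 24 h and 0.16 at 6 h, neither past the test, adjusted p = 0.598 and 0.452). The 6 h call of the bright probe set was also missed in the fit of all probe sets (adjusted p = 0.0813), and in the fit of genes it was lost without 6 h replicate 2 or PBS replicate 1 or 2 (adjusted p between 0.057 and 0.0608). So of the gelatinases MMP9 rose at both times, and MMP2 fell on its bright probe set.

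MMP14, the membrane protease that activates the MMP2 proenzyme, was higher at 24 h than in either other group. Its brightest probe set gave 9809, 9762 and 9066 at 24 h, 7324, 6075 and 7307 at 6 h, and 6510, 7166 and 7026 in PBS. The 24 h arrays lay above all others, and the 6 h and PBS arrays overlapped. At 24 h the gene was 1.38-fold higher than PBS (log2 fold change 0.47 ± 0.09 SE, limma adjusted p = 0.00323) and 1.39-fold higher than at 6 h (adjusted p = 0.00425). The 6 h value was -0.0039 with a 95% interval from -0.20 to 0.20 (adjusted p = 0.976). All 4 MMP14 probe sets were called higher at 24 h, with log2 differences of 0.47, 0.56, 0.66 and 0.74, and none was called at 6 h. In that fit of all 41091 probe sets with 1 symbol 18.3% were called at 24 h and 18.1% at 6 h.

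MMP16, a second membrane-type protease, fell at both times. Its brightest probe set gave 388, 375 and 282 at 24 h, 474, 467 and 474 at 6 h, and 826, 857 and 759 in PBS. No groups overlapped. MMP16 was 2.29-fold lower than PBS at 24 h (log2 fold change -1.20 ± 0.11 SE, limma adjusted p = 8.73e-05) and 1.70-fold lower at 6 h (-0.77 ± 0.11, adjusted p = 0.00112). The further difference between 24 h and 6 h (-0.43 ± 0.11, adjusted p = 0.0212) was lost on leaving out any 6 h replicate (adjusted p between 0.0536 and 0.0579). It was not called in the fit of all probe sets either (adjusted p = 0.0607).

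The 4 other MMP16 probe sets were much dimmer. All 4 were lower than PBS at 24 h, by log2 fold changes between -0.75 and -0.35, and 1 of them was called. At 6 h they lay between -0.30 and 0.02 with none called, and the mean of the 5 probe sets gave -0.23 (adjusted p = 0.297), so the 6 h call rests on the bright probe set.

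**Figure D2:**
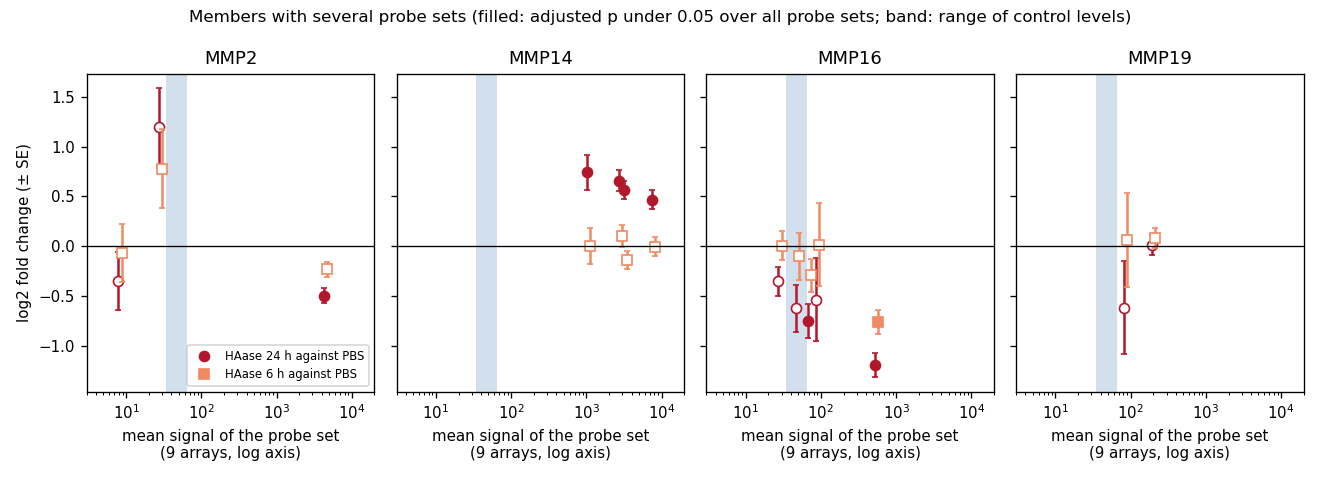
Log2 fold change (± SE) of every probe set of MMP2, MMP14, MMP16 and MMP19 against its mean signal over the 9 arrays (log axis), for HAase 24 h against PBS (circles) and HAase 6 h against PBS (squares). Filled marks passed at an adjusted p under 0.05 over all probe sets, and the band is the range of control levels. The 4 MMP14 probe sets lie between 0.47 and 0.74 at 24 h, and both dim MMP2 probe sets have means below the band.

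MMP12, the macrophage elastase, was dim and differed from the others in its order. It gave 17.0, 40.3 and 44.2 at 24 h, 52.1, 77.4 and 81.1 at 6 h, and 32.4, 34.9 and 27.3 in PBS. The 6 h arrays were the only group with all 3 arrays above their control level, against 2 of 3 at 24 h and none in PBS. Its 24 h and PBS means were both under the filter on low signals, so it was tested only because of its 6 h arrays, and its 6 h calls are to be read with that selection. At 6 h its limma adjusted p against PBS was 0.0227, and it was at least 1.31-fold above the PBS control level. At 24 h it was lower than at 6 h (log2 fold change -0.82 ± 0.24 SE, adjusted p = 0.0314) and gave 0.023 against PBS, with a 95% interval from -0.53 to 0.57 (adjusted p = 0.951). The 6 h call was lost without 6 h replicate 2 or 3 or PBS replicate 1 or 3 (adjusted p up to 0.072), and the difference between the times without 6 h replicate 2 or 3 (adjusted p up to 0.0944). With no filter the difference between the times was lost as well (adjusted p = 0.0518). In the fit of all probe sets its adjusted p was 0.0690, and that of the 6 h difference from PBS was 0.0485. The fitted 6 h value moved between 0.48 and 1.11 over the alternatives. The leukocyte and macrophage markers described beside MMP9 had their highest summed signal at 24 h, while MMP12 was highest at 6 h. The part of these markers in the MMP12 result was not tested.

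MMP19 did not pass in any comparison. Its brightest probe set gave 171, 217 and 209 at 24 h, 213, 218 and 195 at 6 h, and 190.0, 207 and 193 in PBS, and the groups overlapped. The difference from PBS was 0.0088 at 24 h (95% interval -0.20 to 0.22, limma adjusted p = 0.952) and 0.08 at 6 h (-0.13 to 0.29, adjusted p = 0.531). Its second probe set gave 14.8 on 24 h replicate 3 against 79.4 and 101 on the other 24 h arrays, and did not pass either.

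At 6 h, 5 of the 9 tested members were higher than PBS (MMP1, MMP3, MMP10, MMP9 and MMP12) and 2 were lower (MMP2 and MMP16), while 42.4% of all genes were called, 15.0% higher and 27.4% lower. The members called 2-fold or more higher were MMP1 and MMP3, against 3.38% of all genes. The 6 h and PBS arrays did not overlap for 7 of the 9 members and for 54.2% of all genes. Leaving out 6 h replicate 2 reduced the calls to 4, namely MMP1, MMP3, MMP9 and MMP16. MMP10 kept its 6 h call in 9 of the 18 alternatives that tested it. In the fit of all probe sets MMP10 and MMP2 were not called at 6 h (limma adjusted p = 0.0838 and 0.0813). This comparison and that at 24 h share the PBS arrays.

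Between 24 h and 6 h of hyaluronidase 4 members were higher at 24 h (MMP1, MMP3, MMP9 and MMP14) and 3 lower (MMP2, MMP12 and MMP16), while 33.0% of all genes were called, 19.7% higher and 13.3% lower. Without 6 h replicate 2 or 6 h replicate 3 the members lower at 24 h numbered 1, MMP2. In the fit of all probe sets none of MMP2, MMP12 and MMP16 was called (limma adjusted p = 0.0678, 0.0690 and 0.0607). Of all probe sets 12.3% were called there. MMP1, MMP3 and MMP9 were 2-fold or more higher, against 1.71% of all genes. The arrays did not overlap for 7 members and for 45.9% of all genes. By group means of the brightest probe sets the order was 24 h over 6 h over PBS for MMP1, MMP3 and MMP9. It was the reverse for MMP2 and MMP16, and 6 h was highest for MMP12, with the limits just given. For MMP10 the 2 times did not differ beyond their spread, and for MMP14 the 6 h and PBS levels did not.

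**Figure D3:**
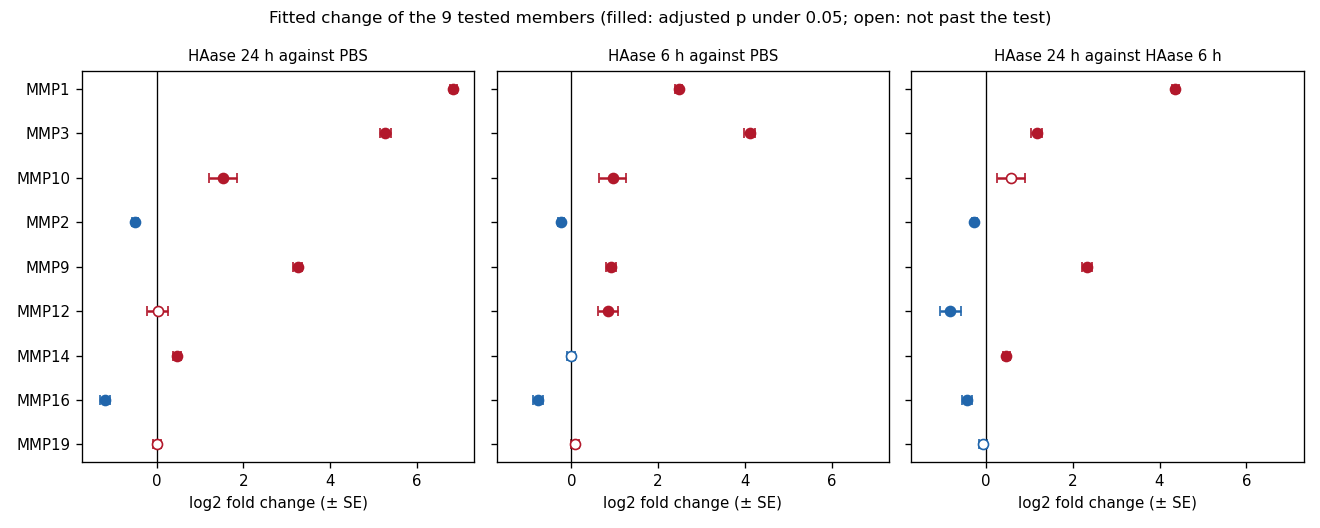
Log2 fold change (± SE) of the 9 tested members, on a shared axis, in the comparisons of HAase 24 h with PBS, HAase 6 h with PBS and HAase 24 h with HAase 6 h. Filled marks passed at an adjusted p under 0.05 and open marks did not. MMP1 moves by 4.37 between the times and MMP3 by 1.17.

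The 5 members MMP10, MMP1, MMP3, MMP12 and MMP13 are neighbours on chromosome 11 and lie in a run of 9 protein-coding genes, all of the family, in the RefSeq gene table of GRCh38.p14. The order in that table is MMP7, MMP20, MMP27, MMP8, MMP10, MMP1, MMP3, MMP12 and MMP13. The largest changes were those of the adjacent pair MMP1 and MMP3. On one side of the pair, MMP10 rose and MMP8, the neutrophil collagenase, was 149 ± 23.6 at 24 h, 49.2 ± 17.5 at 6 h and 65.3 ± 15.2 in PBS (SD, n = 3 each), higher at 24 h (log2 fold change 1.03, limma adjusted p = 0.00583). MMP8 lay above the control level on 2 of 3 PBS arrays, so the size of that change is uncertain. Its second, dimmer probe set gave 0.92 at 24 h and was not called in the fit of all probe sets (limma adjusted p = 0.169). On the other side MMP12 was called higher at 6 h and not at 24 h, and MMP13 stayed below the control level. MMP27 did not pass, and MMP7 and MMP20 were under the filter. In the fit of all probe sets MMP7, or matrilysin, had a limma adjusted p of 0.0391 at 6 h and 0.0668 at 24 h. It gave 47.5, 24.3 and 41.5 at 24 h, 42.3, 34.3 and 44.4 at 6 h, and 22.3, 17.6 and 20.9 in PBS, above the control level on 1 array at each treated time and none in PBS.

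**Figure D4:**
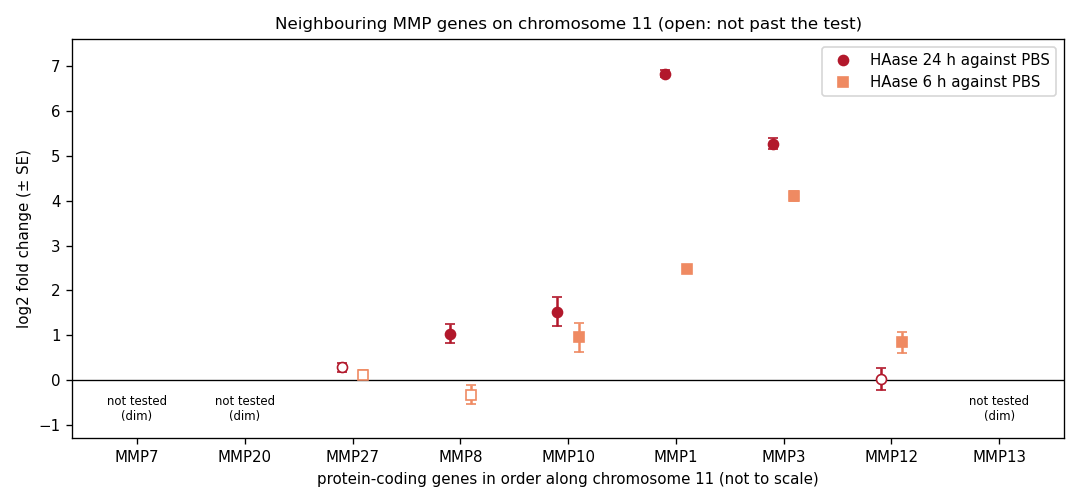
Log2 fold change (± SE) of the 9 MMP genes in their order along chromosome 11 (not to scale), for HAase 24 h against PBS (circles) and HAase 6 h against PBS (squares). Open marks did not pass at an adjusted p under 0.05, and dim genes were not tested. The adjacent genes MMP1 and MMP3 reach 6.84 and 5.27 at 24 h.

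The genes most like each member were taken as the non-members with the smallest root mean square difference over the 9 arrays, in log2 relative to the gene's PBS mean. The 4 members of largest range were MMP1, MMP3, MMP9 and MMP10. For MMP1 the nearest was ITGA2, a collagen-binding integrin subunit, at a difference of 0.56, followed by IL24 at 1.13 and IL33 at 1.25. For MMP3 they were BCL2A1 (0.21), IL1B (0.31) and TMEM158 (0.32). For MMP9 they were LAPTM5 (0.21), SIGLEC15 (0.28) and PODXL (0.30), and LAPTM5 and SIGLEC15 are known mainly from blood-derived cells. For MMP10 they were COL5A3 (0.27), SERPINA1 (0.28) and LINC02535 (0.30). These are descriptions over 9 arrays of 3 groups, and the arrays are shared by all genes.

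Inhibitors of the proteases changed too. Of the 6 tested inhibitors 3 were called higher and 2 lower at both times, and the list's median was 0.54 at 24 h and 0.41 at 6 h. Of all genes 17.5% were higher and 22.8% lower at 24 h and 15.0% and 27.4% at 6 h, with medians of -0.026 and -0.083, and the lists that follow are to be read against these shares. Inhibitors called lower numbered 1 at 24 h with equal array medians, with the mean of probe sets and without PBS replicate 1 or 3. At 6 h they numbered 1 in those settings, with no filter, with the replicate block, in the fit of 2 groups and without any array other than 6 h replicate 1. TIMP1, which binds most secreted members, was 38602 ± 684 at 24 h, 25962 ± 724 at 6 h and 14023 ± 625 in PBS (SD, n = 3 each). It rose by 1.46 on the log2 scale at 24 h and 0.89 at 6 h. TFPI2, a Kunitz-type inhibitor of plasmin and some metalloproteinases, rose by 3.74 at 24 h and 3.10 at 6 h. TIMP3, which is held in the matrix, was highest at 6 h, with 6965 ± 297 at 24 h, 14908 ± 477 at 6 h and 3653 ± 148 in PBS. RECK, a membrane-anchored inhibitor, fell by 0.52 at 24 h and by 0.55 at 6 h on its brightest probe set, and 1 of its 5 probe sets was called. The limma adjusted p-values of these changes were at most 0.00147. TIMP2, which takes part in MMP2 activation by MMP14, gave -0.20 at 24 h and -0.16 at 6 h (adjusted p = 0.0187 and 0.0402), and none of its 3 probe sets was called in the fit of all probe sets (adjusted p = 0.0996 and 0.173 for the brightest).

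Of the 8 tested genes of plasminogen and proprotein activation 3 rose at 24 h (17.5% of all genes) and 4 at 6 h (15.0%), and none was called lower. At 24 h 1 was called lower with a constant of 64, the 50th percentile filter, the trend and robust variance model, the replicate block and without PBS replicate 1. The urokinase receptor gene PLAUR, which focuses plasmin formation at the cell surface, was 6897 ± 254 at 24 h, 3393 ± 195 at 6 h and 554 ± 24.2 in PBS (SD, n = 3 each), log2 fold changes of 3.60 and 2.58. Its ligand PLAU did not pass at either time and lay above the control level on none of the PBS arrays. SERPINE2, a serine protease inhibitor, rose by 0.99 and 0.74, and S100A10, a plasminogen receptor subunit, by 0.53 and 0.41. FURIN, a proprotein convertase that activates membrane-type members, rose at 6 h by 0.40 (limma adjusted p = 0.0321) and gave 0.21 at 24 h (adjusted p = 0.22). Its 1 probe set was not called at 6 h in the fit of all probe sets (limma adjusted p = 0.0779).

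Among the regulators of the AP-1 and ETS families and other factors, 10 of 17 tested rose and 2 fell at 24 h, and 12 rose and 1 fell at 6 h, against 17.5% higher and 22.8% lower of all genes at 24 h and 15.0% and 27.4% at 6 h. With the mean of probe sets 1 fell at 24 h and 0 at 6 h. RUNX2 rose at 24 h on its brightest probe set (0.99), while 2 of its 6 probe sets were called lower. ATF3 fell at 6 h on its brightest probe set (-0.47), while another of its 3 was called higher (0.60). FOS and ETV4 had PBS levels under the filter and passed it through the treated groups. FOSL1, an AP-1 subunit, was 2435 ± 112 at 24 h, 2196 ± 146 at 6 h and 346 ± 22.1 in PBS (SD, n = 3 each), and the 2 times did not differ beyond the test (limma adjusted p = 0.162). FOS was at least 4.33-fold higher at 6 h, from a PBS level below the control levels. At 24 h it gave 15.8, 86.8 and 96.1, against 19.8, 5.10 and 6.61 in PBS, so that the groups overlapped, and its adjusted p was 0.0359 in the fit of genes and 0.0679 in that of all probe sets. JUNB rose by 1.31 at 24 h and 2.35 at 6 h. The ETS factors ETV4, at least 5.35-fold and 3.26-fold higher at 24 h and 6 h, and ETV5, with log2 fold changes of 2.66 and 1.62, also rose. Between the times 10 of the 17 regulators were lower at 24 h and 2 higher, against 13.3% lower and 19.7% higher of all genes.

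Of 10 tested genes on the list of inducing ligands and receptors, 8 rose at each time and none fell, against 17.5% of all genes higher at 24 h and 15.0% at 6 h. The list, which includes TGFB1, does not mean that each gene induces each member. The medians were 1.40 at 24 h and 2.06 at 6 h. EREG and OSM had PBS levels under the filter and passed it through the treated groups. IL1B was 12685 ± 8.88 at 24 h, 5986 ± 108 at 6 h and 419 ± 41.9 in PBS (SD, n = 3 each). HBEGF, an EGF receptor ligand, rose by 3.96 at 24 h and 4.48 at 6 h, and IL6 by 3.15 and 4.72. EREG, another ligand of that receptor, was at least 5.18-fold higher at 24 h and at least 18.0-fold at 6 h on its brightest probe set, and its second probe set was not called at either time. Between the times 6 of the 10 were lower at 24 h and 2 higher, against 13.3% lower and 19.7% higher of all genes. With the mean of probe sets these counts were 3 lower and 1 higher.

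Substrate genes went both ways, with 5 of 14 tested higher and 6 lower at 24 h (17.5% and 22.8% of all genes), and 5 higher and 3 lower at 6 h (15.0% and 27.4%). The number higher at 24 h was 3 without 24 h replicate 2 or PBS replicate 1, with equal array medians, with no filter and with the replicate block. The fibrillar collagen genes COL1A2, COL3A1 and COL1A1, whose products MMP1 can cleave, fell by 2.15, 1.51 and 1.84 on the log2 scale at 24 h. Another COL1A1 probe set was called higher (0.97), against 3 of its 5 called lower. The proteoglycan gene LUM fell by 1.27. COL6A3 rose by 0.99 at 24 h and 1.20 at 6 h, and FN1, the fibronectin gene, by 0.71 and 0.52. COL1A2 fell by 0.48 at 6 h and COL4A1 rose by 0.32. The other members of the family were mostly dim: of 12 on the array 6 were tested, MMP8 was called at 24 h on its brightest probe set, and none was called at 6 h. These counts moved: at 24 h 0 were higher with the 50th percentile filter and 2 with the mean of probe sets or without PBS replicate 1, and at 6 h 1 was higher with no filter.

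**Figure D5:**
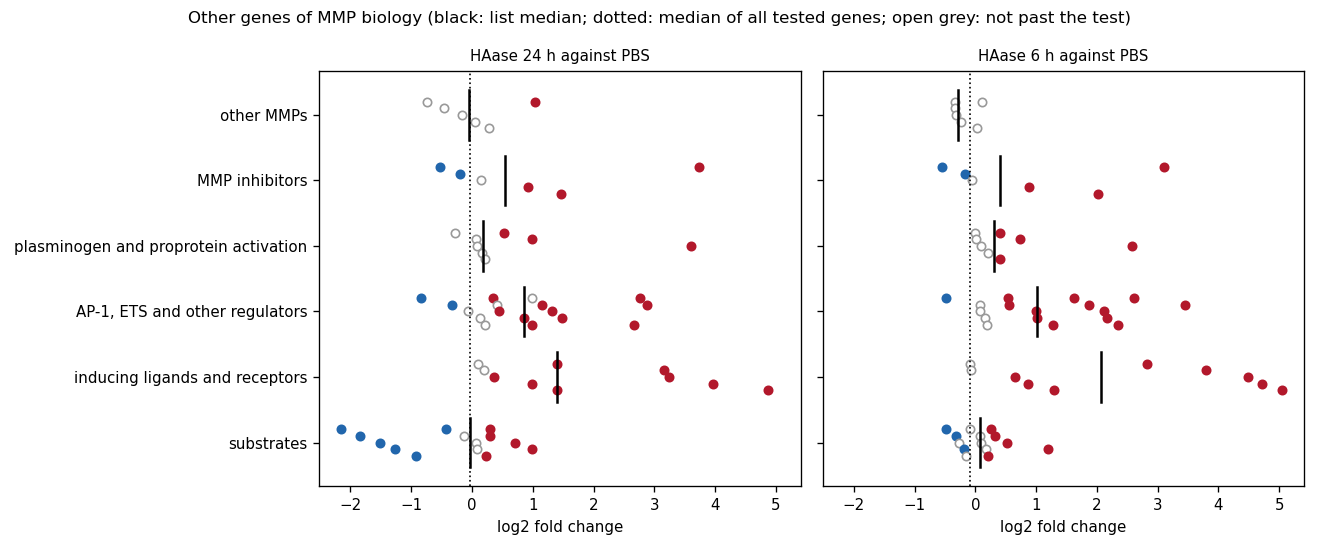
Log2 fold changes of the tested genes of 6 lists of MMP biology for HAase 24 h against PBS (left) and HAase 6 h against PBS (right). Red points were called higher, blue points lower and open grey points neither, black lines are list medians, and the dotted line is the median of all tested genes (-0.026 and -0.083). The inducing ligands and receptors have the highest medians, 1.40 and 2.06.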

How the data were processed

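Each deposited table holds 1 linear intensity per probe set. The design text states that the tables came from CHP files and that the submitters did not use them in their own work. The method that summarised the probes is not given in the sources used here. Each array had been scaled before deposit to nearly 1 level: after trimming 2% at each end the means lay between 500.07 and 500.075. The members and gene lists were chosen with earlier results of these data known.

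The values were put on the scale log2(signal + 16) and not normalized again. Each of 19775 genes with a probe set of 1 symbol took the values of its probe set with the highest mean log2 value. Genes below the 30th percentile of those means (32.2 as a signal) were dropped, and 13842 were tested with limma 3.58.1 in R 4.3.3, with 1 mean per group over all 9 arrays and Benjamini-Hochberg adjustment within a comparison. The script was tested on simulated data. A second fit took all 41091 probe sets with 1 symbol, without a filter. A group wholly at or below the control level has only a bound, written "at least". A permutation of 3 against 3 samples cannot give a two-sided p under 0.1, so none is used. All members were named. From each related list the up to 4 genes of largest change past the test were named. TIMP2, PLAU, MMP8, MMP27, RUNX2 and ATF3, the markers named and second probe sets were added after their values were seen. Genes the array names only jointly with others are not analysed here.

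The alternatives were other added constants, 2 normalizations, 2 filters, the mean of probe sets, another variance model, the replicate block, fits of 2 groups and leaving out each array. Precision is limited by the number of arrays.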

Additional observations from a re-analysis of the deposited data

Results flagged for a closer look

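Levels differed between 24 h and 6 h of hyaluronidase, by the direct test of these groups with limma over all genes, for 7 of the 9 tested members and 33.0% of all genes. PBS cells were harvested at 24 h alone, so time in culture and length of exposure cannot be told apart in these differences. The 24 h level exceeded the 6 h level by 4.37 on the log2 scale for MMP1, 2.33 for MMP9, 1.17 for MMP3 and 0.47 for MMP14. It lay below the 6 h level for MMP12 (-0.82), MMP16 (-0.43) and MMP2 (-0.27). The adjusted p-values ran from 1.06e-07 for MMP1 to 0.0314 for MMP12. Leaving out 1 array gave 5 to 7 calls: MMP12 was lost without 6 h replicate 2 or 3 and MMP16 without 6 h replicate 1, 2 or 3, and both in the fit of 2 groups. MMP12 was also lost with no filter on low signals (adjusted p = 0.0518). In the fit of all probe sets MMP2, MMP12 and MMP16 were not called (adjusted p = 0.0678, 0.0690 and 0.0607).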

How the results depend on the processing

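Over 19 alternatives, 366 of 395 values of the 21 called member changes kept their direction and call, 27 lost the call and 2 reversed. The calls of MMP1, MMP3 and MMP9 in the 3 comparisons, of MMP14 at 24 h against either group, and of MMP10 and MMP16 at 24 h against PBS held in every alternative that tested them. With the mean of probe sets MMP2 reversed to 0.12 at 24 h and 0.16 at 6 h and lost its call between the times (-0.043), and MMP16 lost its calls at 6 h (adjusted p = 0.297) and between the times (0.0634). Members called lower then numbered 1 at 24 h, 0 at 6 h and 1 between the times, and 1808 genes were called higher between the times against 2731. The other MMP2 probe sets were dim, and the cause of these changes was not tested. The 50th percentile filter, which drops MMP10 and MMP12, left 3 members higher at 6 h. Fits of only the 2 groups compared left 1 member lower between the times, since MMP12 and MMP16 were lost. Deviations of same-numbered samples from their group means correlated between -0.049 and 0.037 over 9 pairs, so no shared deviation by replicate number was seen. Whether the samples were paired when made cannot be told from these values. The replicate block lost MMP10 at 6 h (adjusted p = 0.0661) and left 6 members called there, and it changed no other member call. Leaving out 1 array gave 7 calls throughout at 24 h, 4 to 7 at 6 h (3 to 5 higher, 1 to 2 lower) and 5 to 7 between the times (1 to 3 lower). Among changes that did not pass, MMP12 at 24 h turned to -0.0039 with a constant of 1 and -0.013 under quantile normalization and ran from -0.14 to 0.30 over arrays left out. MMP19 at 24 h turned to -0.30 with the mean of probe sets and ran from -0.052 to 0.11 over arrays left out. MMP14 at 6 h ran from -0.049 to 0.085 and MMP19 between the times from -0.13 to 0.026. Signals near the control level limit MMP10, MMP12 and MMP13.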
